A study of Mus musculus with 4 samples.

Results

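The genes of the nucleus that encode subunits of the mitochondrial respiratory chain and ATP synthase were described in 4 RNA-sequencing libraries of mouse primary T cells. Members were the protein-coding genes outside the mitochondrial chromosome whose symbol begins with Ndufa, Ndufb, Ndufc, Ndufs or Ndufv and a number, Uqcr, Cox4 to Cox8 or Atp5, together with Sdha to Sdhd and Cyc1. This gave 85 members among 50600 annotated genes, of which 21751 were protein-coding and outside the mitochondrial chromosome. They comprised 35 genes of complex I, 4 of complex II, 9 of complex III, 20 of complex IV and 17 of complex V. Ndufa4 and Ndufa4l2 were placed with complex IV, where the protein is found, in spite of their name. Atp5s matched the name rule and was kept with complex V, although it encodes coupling factor B and is not listed as a subunit here.

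Oxidative phosphorylation couples the passage of electrons from NADH and succinate to oxygen with the pumping of protons across the inner mitochondrial membrane, and ATP synthase uses the returning protons to make ATP. Complexes I, III, IV and V are built from products of both genomes, whereas every subunit of complex II is encoded in the nucleus. A T cell that is activated through its receptor enlarges its mitochondrial content, and respiration is used both for energy and for the synthesis of aspartate and nucleotides during division.

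All 4 libraries came from 1 group, primary T cells of strain C57BL/6NJ, with no treatment, genotype or comparison arm in the labels. The labels number the libraries as biological replicates 1 to 4, record age and developmental stage as unknown, and give all 4 the same donor identifier, so whether the cells came from separate animals was not stated. File headers carry the words activated bulk, Th0 and 72 hours. Library totals ran from 49613182 to 94222415 counted fragments. All 10 T-cell markers examined, Cd3d, Cd3e, Cd3g, Cd247, Trac, Trbc2, Cd4, Cd5, Lck and Zap70, were detected, and 0 of 13 markers of other cells were, with summed levels of 3.28 to 4.00 TPM across libraries. Levels are given in TPM, a count scaled by length and by library, computed from the counts and the summed exon length of each gene, and a gene was called detected when it reached a TPM of 1 in every library. Exon sums can exceed the length of the main transcript, so values with the length of the principal transcript, the isoform that the annotation ranks first, are given where they change an order.

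Of the 85 members, 79 were detected against a background of 49.4% of nuclear protein-coding genes. The other 6, Cox4i2, Cox6a2, Cox7b2, Cox8b, Cox8c and Ndufa4l2, are all isoforms of complex IV subunits for which a second gene was detected. In all, 61 members exceeded 100 TPM and 3 exceeded 1000 TPM, while 73 lay above 34.6 TPM, the mean over libraries of the median level of detected protein-coding genes. The median detected member stood at 191 ± 20.7 TPM (SD, n = 4). The members were spread over 19 chromosomes, with 3 on the X chromosome, namely Ndufa1, Ndufb11 and Cox7b.

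**Figure D1:**
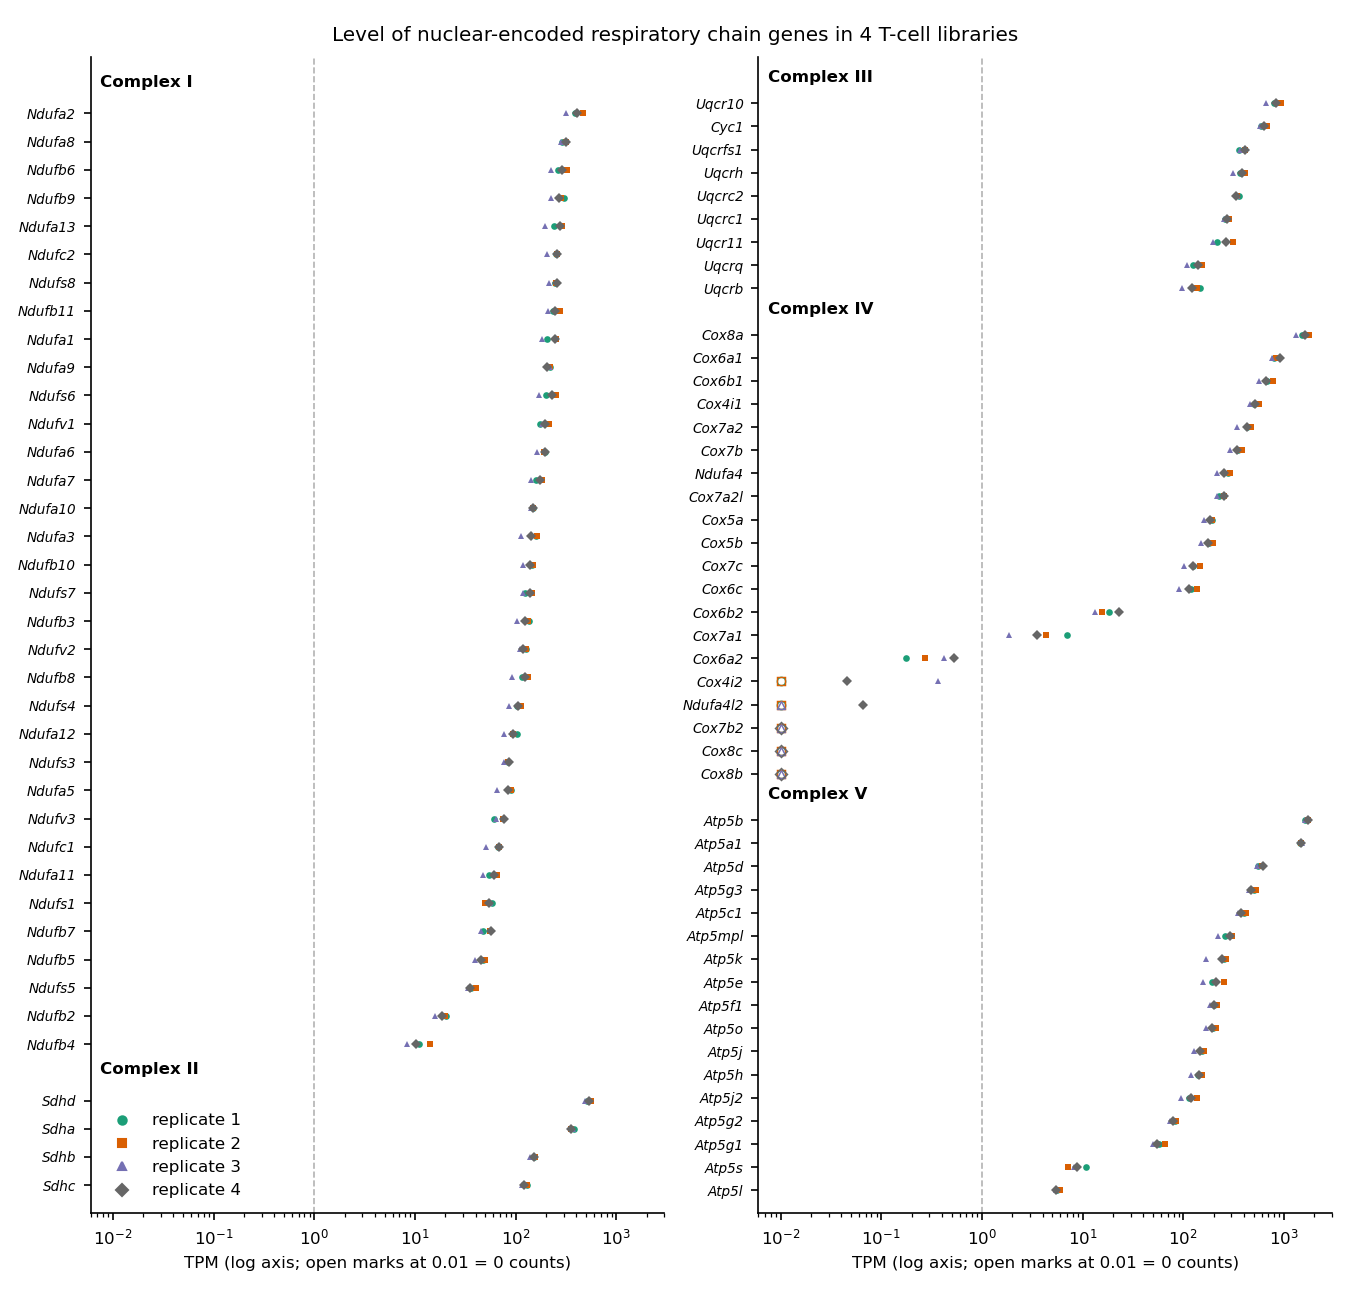
TPM of the members reported (horizontal log axis) in replicates 1 to 4, by complex and in order of mean level, with a dashed line at 1 TPM and open marks for 0 counts. Most members lie between 10 and 1000 TPM, and 6 complex IV isoforms lie left of the line.

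The factors GABP, NRF1 and YY1 are known to act at promoters of many respiratory genes. Windows from 250 bases before to 50 bases after annotated starts were searched for 5 short motifs. RefSeq windows on GRCm38.p6 were found for 68 of 85 members, 66 of them detected. For isoforms that differed most in level or that hold the searched motifs, 5 upstream stretches are printed, each covering the 250 bases before the start on the minus strand: Cox8a at chr19:7217617-7217866, Cox8b at chr7:140900447-140900696, Cox6b1 at chr7:30626115-30626364, Cox6b2 at chr7:4753095-4753344 and Cox6a1 at chr5:115348959-115349208. Capitals mark matches to the motifs on either strand.
Cox8a: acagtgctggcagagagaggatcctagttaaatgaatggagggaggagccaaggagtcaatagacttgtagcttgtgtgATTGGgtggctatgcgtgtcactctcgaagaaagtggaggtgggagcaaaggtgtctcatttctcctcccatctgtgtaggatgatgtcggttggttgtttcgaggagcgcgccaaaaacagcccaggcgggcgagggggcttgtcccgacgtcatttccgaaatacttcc
Cox8b: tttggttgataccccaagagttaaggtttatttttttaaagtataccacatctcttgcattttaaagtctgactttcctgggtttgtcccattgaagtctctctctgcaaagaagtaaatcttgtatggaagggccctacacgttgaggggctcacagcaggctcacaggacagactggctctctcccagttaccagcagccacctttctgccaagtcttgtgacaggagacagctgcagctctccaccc
Cox6b1: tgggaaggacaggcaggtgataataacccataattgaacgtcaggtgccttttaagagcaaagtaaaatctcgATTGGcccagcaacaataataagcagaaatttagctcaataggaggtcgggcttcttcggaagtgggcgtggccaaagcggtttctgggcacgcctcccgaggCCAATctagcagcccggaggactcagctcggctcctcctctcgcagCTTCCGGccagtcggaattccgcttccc
Cox6b2: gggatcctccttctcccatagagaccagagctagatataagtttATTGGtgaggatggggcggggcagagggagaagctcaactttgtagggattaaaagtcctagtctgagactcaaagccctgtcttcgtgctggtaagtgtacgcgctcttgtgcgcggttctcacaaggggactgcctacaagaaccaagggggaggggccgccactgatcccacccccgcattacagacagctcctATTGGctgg
Cox6a1: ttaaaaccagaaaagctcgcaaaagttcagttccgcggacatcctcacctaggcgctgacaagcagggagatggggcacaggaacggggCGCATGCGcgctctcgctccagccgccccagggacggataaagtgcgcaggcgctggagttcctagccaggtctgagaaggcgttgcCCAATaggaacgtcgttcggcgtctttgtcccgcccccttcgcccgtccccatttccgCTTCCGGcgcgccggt

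The letters searched were CCGGAAG for the ETS factor GABP, GCATGCG for NRF1, ATGGCGG for YY1, CCAAT for NF-Y and TATAAA for a TATA box. GCATGCG overlaps its own reverse complement, so the NRF1 run in Cox6a1 counts as 2 matches. The Cox6a1 stretch holds matches to NRF1, NF-Y and ETS, the last 16 bases before the start. Cox6b1, the widely expressed isoform, holds 2 NF-Y matches and an ETS match, and Cox6b2 holds 2 NF-Y matches alone. Cox8a, the most abundant complex IV member, holds a single NF-Y match, and the stretch of the undetected Cox8b holds 0 matches to the 5 motifs. The stretches of the detected Cox5a, Cox5b and Cox7a2 also hold 0 matches, and that of the undetected Cox7b2 holds 4. A match is a run of letters and not a measured binding site.

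Among the 66 detected members with a window, 11 (16.7%) held the NRF1 letters, against 7.75% of 8616 detected genes. The ETS letters stood in 16 of 66 (24.2%), against 22.2% of detected genes, and the YY1 letters in 10 of 66 (15.2%), against 10.3%. A match lay after the start in 6 of the 10 YY1 members, 6 of 16 for ETS and 1 of 11 for NRF1. This was counted for members only. The shares for NF-Y, 43.9% against 43.5%, and for TATAAA, 7.58% against 8.01%, were close to each other. Over all 32851 windows in the reference the shares were 3.58% for NRF1, 8.86% for ETS, 4.05% for YY1, 37.4% for NF-Y and 13.6% for TATAAA. At least 1 of the ETS, NRF1 and YY1 runs was present in 30 of 66 detected members (45.5%) and in 35.1% of detected genes. A protein-coding neighbour starting on the opposite strand within 1000 bases was found for 19 of 79 detected members (24.1%) and for 11.2% of detected protein-coding genes. Sdhd and Timm8b, Ndufa7 and Rps28, and Uqcr10 and Zmat5 are examples of such head-to-head neighbours. These shares are descriptions with no test.

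Complex I, the NADH dehydrogenase, had all 35 members detected, with a median of 138 ± 13.6 TPM (SD, n = 4). In its catalytic core Ndufs1, the largest iron-sulphur subunit, read 57.9, 49.9, 56.3 and 54.5 TPM in replicates 1 to 4. Ndufv1, which binds NADH and FMN, read 176, 213, 184 and 195 TPM. The 2 genes encode parts of the same NADH-oxidising module, and their ranges did not overlap.

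Ndufv2, the iron-sulphur partner of Ndufv1, stood at 121 ± 8.11 TPM (SD, n = 4). Ndufs7 stood at 132 ± 12.8 TPM, Ndufs8 at 242 ± 19.4 TPM and Ndufs3 at 82.7 ± 3.62 TPM. Ndufs7 and Ndufs8 carry the iron-sulphur clusters next to the quinone site. Ndufv2 and Ndufs7 overlapped across libraries with summed exons. With the principal length they stood at 99.2 ± 6.33 and 161 ± 15.2 TPM, and Ndufs7 was above Ndufv2 in all 4 libraries. Ndufs3, at 121 ± 4.89 TPM, and Ndufs1, at 116 ± 7.52 TPM, were then also above Ndufv2 in all 4. Ndufs8, at 162 ± 12.5 TPM, was below Ndufv1, at 204 ± 16.8 TPM, in all 4, the reverse of their order by summed exons.

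Among the accessory subunits of complex I the highest by summed exons were Ndufa2, at 394 ± 62.5 TPM, and Ndufa8, at 300 ± 17.5 TPM. With the principal length Ndufb8, at 375 TPM, and Ndufa7, at 372 TPM, stood above Ndufa2, at 276 TPM, and Ndufa8, at 210.3 TPM. The lowest were the membrane arm subunits Ndufb4, at 10.96 ± 2.35 TPM, Ndufb2, at 18.7 ± 2.02 TPM, and Ndufs5, at 36.5 ± 3.04 TPM. Complex I holds 1 copy of each of these proteins. In Ndufb4, 37.0% of the 50-base words of the principal transcript also occur in transcripts of other genes, and in Ndufs5 31.1% do. In the core subunit Ndufs3 35.8% do. In Ndufb2 2.29% do, and with the principal length it was still low, at 16.8 ± 1.77 TPM. By default featureCounts leaves out fragments marked as aligning to several places, and the counting command set no option for them. The part of this in the values of Ndufb4, Ndufs5 and Ndufs3 was not tested.

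Complex II, succinate dehydrogenase, links the citric acid cycle to the chain and had a median of 258 ± 5.63 TPM over its 4 genes. Sdha, the flavoprotein that oxidises succinate, read 379, 351, 375 and 357 TPM. Sdhb, the iron-sulphur subunit bound to it, read 153, 157, 139 and 153 TPM. Sdha was above Sdhb in every library, by 1.28 ± 0.12 on the log2(TPM + 1) scale, or 0.73 ± 0.12 with the principal length. The membrane anchors differed more, with Sdhd at 523 ± 26.9 TPM and Sdhc at 124 ± 6.58 TPM.

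Complex III, the cytochrome bc1 complex, passes electrons from quinol to cytochrome c, and its 9 genes had a median of 337 ± 19.4 TPM. Of its redox subunits, Cyc1, cytochrome c1, stood at 621 ± 47.6 TPM and Uqcrfs1, the Rieske iron-sulphur protein, at 387 ± 26.6 TPM. The core proteins Uqcrc2 and Uqcrc1 stood at 344 ± 9.64 TPM and 267 ± 13.3 TPM. With the principal length Uqcrc1, at 468 ± 22.0 TPM, was above Uqcrc2, at 324 ± 8.68 TPM, in all 4 libraries. Uqcrc1 was then also above Cyc1, at 342 ± 25.3 TPM, and Uqcrfs1, at 271 ± 18.3 TPM. Uqcr10, a small subunit, was the highest of the complex under both lengths, at 813 ± 113 TPM by summed exons.

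The hinge protein Uqcrh stood at 368 ± 41.9 TPM, and Uqcr11, the smallest subunit, at 248 ± 52.7 TPM. With the principal length Uqcrh stood at 583 ± 64.6 TPM, above Cyc1 and Uqcrc1. Uqcrq at 132 ± 19.7 TPM and Uqcrb at 125 ± 21.6 TPM were the lowest, with either order among libraries. With the principal length they stood at 111 ± 16.3 and 144 ± 24.3 TPM, and Uqcrb was above Uqcrq in all 4 libraries. Uqcrb shares 43.2% of its 50-base words with other genes.

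Complex IV, cytochrome c oxidase, hands electrons to oxygen, and several of its nuclear subunits exist as a widely expressed and a tissue-restricted isoform. The 14 detected members had a median of 248 ± 22.0 TPM. In each isoform family the widely expressed gene stood above the tissue-restricted or inducible gene in all 4 libraries. With 4 libraries the exact two-sided sign-flip test has 16 sign patterns and cannot go below 2 of them, p = 0.13, so none of the 15 pairs examined could pass 0.05. Every pair gave this exact p, before and after Benjamini-Hochberg adjustment over the pairs.

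Cox8a, the most abundant complex IV member, read 1503, 1766, 1303 and 1625 TPM. Cox8b, the heart and muscle isoform, and Cox8c, the testis isoform, had 0 counts in every library. Against a floor of 3 counts per library, Cox8a was at least 2178-fold higher than Cox8b and at least 2880-fold higher than Cox8c. Cox7b, at 341 ± 36.3 TPM, was at least 737-fold higher than Cox7b2, which also had 0 counts in every library.

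Cox4i1, the isoform found in most tissues, read 498, 560, 459 and 511 TPM. Cox4i2, known from lung, had 0, 0, 4 and 1 counts, and the pair differed by 8.86 ± 0.32 on the log2(TPM + 1) scale. Cox6a1, the widely expressed regulatory subunit, read 789, 828, 762 and 916 TPM. Cox6a2, its heart and muscle isoform, had 2, 3, 4 and 10 counts, and the pair differed by 9.26 ± 0.15. Ndufa4 stood at 259 ± 31.9 TPM, whereas Ndufa4l2, known as a target of the oxygen-sensing pathway, had 2 counts in replicate 4 and 0 elsewhere. That pair differed by 7.99 ± 0.19, and for such low genes the pseudocount of 1 sets how large the difference becomes.

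In 2 families a tissue-restricted isoform passed detection. Cox6b2, the testis isoform, read 18.4, 15.4, 13.2 and 22.7 TPM, from 203 to 700 counts, while Cox6b1 read 681, 779, 567 and 659 TPM. The ratio of Cox6b1 to Cox6b2 was 39.9 ± 9.14 (SD, n = 4) and ran from 29.0 to 50.5. Cox7a1, the heart and muscle isoform, read 7.02, 4.28, 1.88 and 3.50 TPM from 63, 37, 14 and 52 counts. Cox7a2, its widely expressed partner, read 428, 471, 342 and 429 TPM. Of the markers of other cells, the muscle gene Ckm averaged 0.80 ± 0.27 TPM, with 1.19 TPM in replicate 2. The brown fat gene Ucp1 had 0 counts in every library. The part of other cells in the Cox6b2 and Cox7a1 values was not tested.

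Cox7a2l, known as a factor of supercomplexes with complex III, a role not tested in these cells, stood at 237 ± 17.9 TPM. Cox7a2 exceeded it in every library, by 0.81 ± 0.13 on the log2(TPM + 1) scale, or 1.23 ± 0.13 with the principal length. Cox6c stood at 115 ± 19.5 TPM by summed exons and at 391 ± 64.8 TPM with the principal length, so its low place among complex IV genes rests on the length used.

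**Figure D2:**
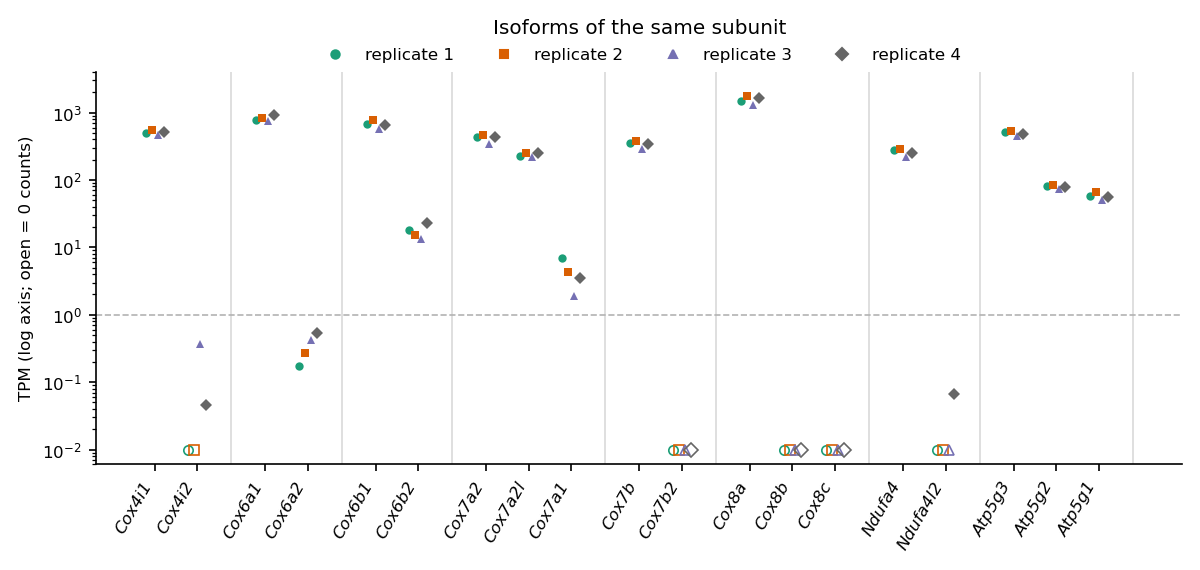
TPM (vertical log axis) of isoforms of the same subunit in replicates 1 to 4, with a dashed line at 1 TPM and open marks for 0 counts. Cox8b, Cox8c and Cox7b2 have 0 counts in every library, and Cox6b2 and Cox7a1 are the 2 tissue-restricted isoforms above the line.

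Complex V, ATP synthase, had 17 members detected and a median of 196 ± 20.05 TPM. Its F1 head held Atp5b, the highest of all members under both lengths, and Atp5a1. Cox8a was above Atp5a1 by summed exons, at 1549 against 1477 TPM, and below it with the principal length, at 1076 against 1313 TPM. Atp5b, the catalytic beta subunit at chr10:128083273-128090391 on mm10, the build of all gene coordinates here, read 1630, 1737, 1636 and 1721 TPM. Atp5a1, the alpha subunit, read 1446, 1483, 1517 and 1463 TPM and was below Atp5b in every library, by 0.19 ± 0.06 on the log2(TPM + 1) scale. That difference was -0.99 ± 0.06 with the principal length. The assembled enzyme holds these 2 in equal number.

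The single-copy subunits of the head were lower. Atp5c1, the gamma subunit of the rotor, stood at 385 ± 29.7 TPM, and Atp5b exceeded it by a ratio of 4.38 ± 0.30. Atp5d, the delta subunit, stood at 580 ± 42.8 TPM and Atp5e, the epsilon subunit, at 204 ± 39.8 TPM. With the principal length Atp5e stood at 596 ± 114.5 TPM, Atp5d at 555 ± 39.9 TPM and Atp5c1 at 442 ± 32.7 TPM. Atp5e was then above Atp5c1 in every library, and above Atp5d in every library but replicate 3.

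The 3 genes for the proton-carrying c ring encode the same mature protein. Atp5g3 read 506, 531, 446 and 476 TPM, Atp5g2 82.2, 84.3, 74.3 and 79.7 TPM, and Atp5g1 56.8, 65.6, 50.5 and 55.1 TPM. Atp5g3 exceeded Atp5g2 and Atp5g1 in every library, with differences from it of -2.60 ± 0.04 for Atp5g2 and -3.08 ± 0.06 for Atp5g1 on the log2(TPM + 1) scale. Atp5g2 shares 87.4% of its 50-base words with 2 other genes, the largest share of any member. The order of Atp5g1 and Atp5g2, a difference of -0.49 ± 0.09, turned to 1.04 when counts were not divided by length. With the principal length the differences were -1.61 for Atp5g1 and Atp5g2, -3.00 for Atp5g2 and Atp5g3 and -4.61 for Atp5g1 and Atp5g3.

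Of the peripheral stalk genes, summed exons placed Atp5f1 at 202 ± 12.6 TPM, Atp5o at 192 ± 17.9 TPM, Atp5j at 147 ± 14.9 TPM and Atp5h at 139 ± 15.0 TPM. Within libraries Atp5f1 was above Atp5o, and Atp5j above Atp5h, in all 4. With the principal length Atp5j was the highest at 399 ± 39.0 TPM, followed by Atp5o at 363, Atp5f1 at 362 and Atp5h at 209 ± 21.9 TPM. Exons of Donson cover 12.7% of the exon length of Atp5o on the same strand. Atp5h shares 47.9% of its 50-base words with other genes, Atp5o 35.5%, Atp5f1 23.2% and Atp5j 5%. The part of this in the order of the stalk genes was not tested. Of the small membrane subunits, summed exons placed Atp5mpl at 269 ± 36.8 TPM, Atp5k at 233 ± 43.4 TPM, Atp5j2 at 116 ± 17.2 TPM and Atp5l at 5.57 ± 0.28 TPM. With the principal length Atp5j2, at 281 ± 40.8 TPM, and Atp5k, at 271 ± 49.7 TPM, were above Atp5mpl, at 112 ± 15.1 TPM, in all 4 libraries. Atp5s stood at 8.73 ± 1.61 TPM.

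Atp5l was the member whose level moved most, 8.30-fold, with the length used. Its exons sum to 6443 bases, whereas its principal transcript has 544, and 68.5% of that transcript's 50-base words occur in 13 other genes. With the principal length Atp5l stood at 46.3 ± 2.24 TPM. Across members, 24 had an exon sum over 2 times the principal length, and 13 of 79 were raised over 2-fold by the change. Ndufb7 moved from 51.4 to 261 TPM and Ndufb5 from 45.3 to 147 TPM. The complex medians became 163 TPM for complex I, 274 for II, 321 for III, 397 for IV and 358 for V, so that complex IV and not complex III was the highest.

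**Figure D3:**
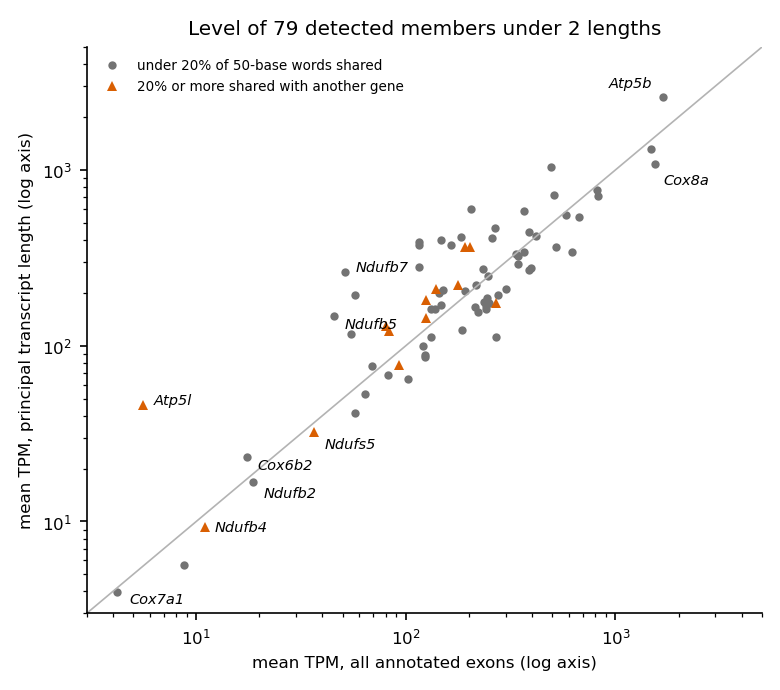
Mean TPM of the 79 detected members from all annotated exons (horizontal) against that from the principal transcript (vertical), both log axes, with the line of equality; triangles share 20% or more of their 50-base words with another gene. Atp5l and Ndufb7 lie farthest above the line.

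Together the members held 2.31%, 2.52%, 2.09% and 2.38% of nuclear protein-coding TPM in replicates 1 to 4. Complex V made up 29.1% of the members' TPM, complex I 25.1%, complex IV 25.1%, complex III 15.3% and complex II 5.40%. Replicate 3 was the lowest and replicate 2 the highest of the 4 shares. In such bulk samples fewer cells of a type and less RNA per cell cannot be told apart.

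The same order ran through single members. Replicate 3 was the lowest library for 68 of 79 detected members, against a background of 17.3% of detected protein-coding genes, and replicate 2 the highest for 50, against 16.6%. The median shift of members from their own mean was 0.02, 0.14, -0.21 and 0.03 on the log2 scale in replicates 1 to 4. Over all detected protein-coding genes it was 0.02, -0.05, 0.06 and -0.02. Without replicate 3 the members' shifts in replicates 1, 2 and 4 were -0.04, 0.07 and -0.02. Each is then a shift from the mean of the libraries kept, which is higher without the lowest library. The smaller size in replicate 2 and the change of sign in replicates 1 and 4 are therefore not separate results.

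Transcript length moved with this shift, and the members are short. Their median principal transcript had 861 bases, against 2962 for detected protein-coding genes. Other genes of 500 to 700 bases shifted by -0.19 in replicate 3 and members of that length by -0.24. Between 700 and 1000 bases the values were -0.14 and -0.21, and between 1000 and 1500 bases -0.07 and -0.13. In longer classes other genes moved the other way, by 0.01 at 1500 to 2500 bases and 0.08 at 2500 to 5000 bases, while members shifted by -0.07 and -0.09. From 500 to 2500 bases each class holds 14 to 24 members, and the class from 2500 bases holds 5. Across genes, which are not independent replicates and share the libraries, shift in replicate 3 was set beside log2 of principal length. Pearson's r was 0.57 over 79 members and 0.56 over 10747 detected genes. In the length range of the members the background for being lowest in replicate 3 was 33.1%, and for being highest in replicate 2 it was 30.8%. That range had a median principal length of 1776.5 bases, longer than the members. By class, 61.9% of other genes under 500 bases were lowest in replicate 3, beside 6 of 6 members. The values were 63.4% and 23 of 24 at 500 to 700 bases, and 66.7% and 16 of 16 at 700 to 1000. They were 48.3% and 12 of 14 at 1000 to 1500 bases, and 21.5% and 8 of 14 at 1500 to 2500. At 2500 to 5000 bases they were 6.96% and 3 of 5. Whether length, RNA quality or the cells set the members' shift was not tested.

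**Figure D4:**
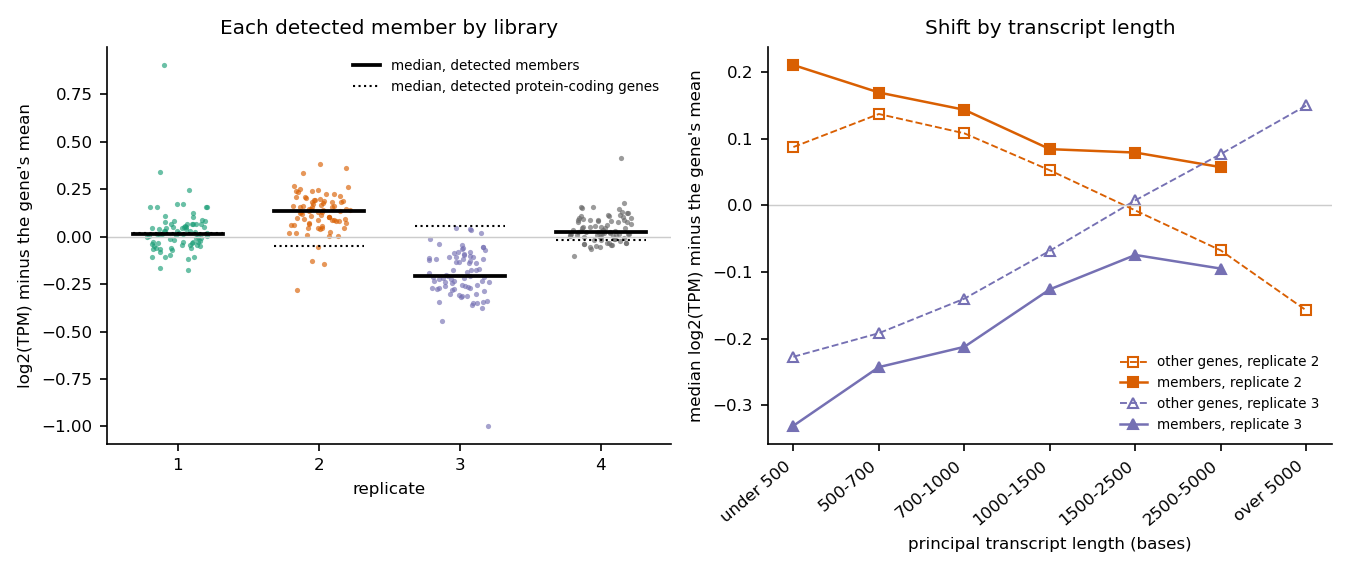
Left, log2 TPM of each detected member minus its mean over libraries, with medians of members (solid) and of detected protein-coding genes (dotted). Right, median shift in replicates 2 and 3 by principal transcript length for members (filled) and other genes (open). Short genes of both kinds lie below 0 in replicate 3 and above 0 in replicate 2.

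Excess spread between libraries was tested for every gene with edgeR, by the deviance from a single mean, with Benjamini-Hochberg adjustment. In all, 5 of 79 members passed an adjusted p of 0.05, against a background of 0.687% of 13681 genes, and 42 had an unadjusted p under 0.05, against 7.01%. The 5 encode small subunits of complexes I, III, IV and V. Without replicate 3, 0 members passed and 7 had an unadjusted p under 0.05, against 5.97% of genes. Without replicate 2, 0 passed and 33 had an unadjusted p under 0.05, against 5.66% of genes. After removal of a trend on principal transcript length, Atp5g1 was the 1 member that passed, against 0.833% of genes, and none of the 5 did. In that setting 10 members had an unadjusted p under 0.05, against 6.7% of genes. After removal of a trend on summed exon length, 4 members passed, against 0.782% of genes. In that setting 18 members had an unadjusted p under 0.05, against 6.62% of genes. Atp5e and Cox6c were among the 5 and passed again, and Uqcr11 (edgeR adjusted p = 0.078), Ndufa13 (0.27) and Atp5k (0.31) did not pass. With a common dispersion Cox7a1 was the 1 member of 79 that passed, against 4.51% of genes, and none of the 5 did.

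Atp5e, at chr2:174461072-174464105, read 194, 254, 158 and 210 TPM (edgeR adjusted p = 0.0013). Uqcr11, at chr10:80402997-80406830, read 215, 313, 196 and 265 TPM (edgeR adjusted p = 0.0023). Cox6c, at chr15:35925886-35938246, read 120, 137, 89.9 and 115 TPM (edgeR adjusted p = 0.012). In each of these 3 the highest library was replicate 2 and the lowest replicate 3.

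Ndufa13, a membrane arm subunit at chr8:69894180-69902558, read 242, 287, 194 and 274 TPM (edgeR adjusted p = 0.016). Atp5k, the e subunit that helps ATP synthase to dimerise, lies at chr5:108433244-108434448 and read 256, 263, 169 and 245 TPM (edgeR adjusted p = 0.018). Atp5k did not pass with no filter on low counts (edgeR adjusted p = 0.20) or with a mean count of at least 50 (0.11). Both were again lowest in replicate 3 and highest in replicate 2.

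The sizes were small. Among detected members 78 of 79 differed by less than 2-fold between the highest and lowest library, and the exception was Cox7a1, with an SD of 0.79 on the log2 scale and an edgeR adjusted p of 0.68 under the trended dispersion. After Cox7a1 the largest SDs were those of Cox6b2 (0.34), Ndufb4 (0.31), Uqcr11 (0.30) and Atp5k (0.30). Atp5a1 (0.03) and Ndufa10 (0.04) were among the members that varied least.

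The other genes of the pathway were taken from lists chosen by role. Of the 13 mitochondrially encoded subunits 7 were detected, led by mt-Co1 at 5829 ± 1713 TPM and mt-Cytb at 3257 ± 865 TPM, and mt-Nd4 and mt-Nd6 passed the edgeR test of spread. The lowest of the 7 was mt-Nd6 at 18.3 ± 10.6 TPM. The undetected mt-Co2, mt-Co3, mt-Atp6, mt-Atp8, mt-Nd3 and mt-Nd4l had 0 to 4 counts in each library, beside at least 104420 for mt-Co1 from the same polycistronic transcript, and no ratio of the genomes was drawn. Fragments shared with nuclear copies of mitochondrial DNA were not tested as a source.

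Assembly factors were detected in 15 of 15 cases for complex I, 10 of 10 for complexes II and III, 21 of 22 for complex IV and 3 of 3 for complex V. The complex I list held 16 genes, of which 15 were matched to a measured gene. For complex I the highest were Ndufaf8 at 71.9 ± 14.1 TPM and Ndufaf2 at 69.9 ± 10.6 TPM, and the lowest Nubpl at 9.67 ± 0.65 TPM, while with the principal length Ecsit was the highest at 63.0 ± 1.02 TPM. Uqcc2 at 167 ± 31.0 TPM and Uqcc3 at 117 ± 13.8 TPM led the factors of complexes II and III, and Lyrm7, which guards the Rieske protein, was the lowest at 3.69 ± 0.36 TPM. For complex IV, Higd2a stood at 242 ± 16.7 TPM, Coa3 at 163 ± 22.7 TPM and Pet117 at 0 counts in every library. Tmem70 at 169 ± 4.77 TPM, Atpaf2 at 100.3 ± 2.88 TPM and Atpaf1 at 12.7 ± 0.17 TPM serve complex V. Of the detected assembly factors, Uqcc2 passed the edgeR test of spread (edgeR adjusted p = 0.018), with 169, 197, 124 and 177 TPM.

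Among carriers and other entry points 10 of 12 were detected. The ADP/ATP carrier Slc25a5 was the highest at 1233 ± 63.4 TPM. Slc25a4, another ADP/ATP carrier, at 420 ± 30.2 TPM and the phosphate carrier Slc25a3 at 415 ± 4.73 TPM were level by summed exons, and with the principal length Slc25a3 stood at 1001 and Slc25a4 at 360 TPM. Of this list, the testis forms Slc25a31 and Cyct were not detected. Ndufab1, a complex I subunit whose name falls outside the rule, was the lowest detected at 20.5 ± 1.04 TPM. Of 15 regulators 14 were detected, with Yy1 at 168 ± 3.50 TPM and the coactivator Pprc1 at 109 ± 10.9 TPM the highest by summed exons and Ppargc1b the lowest detected at 5.59 ± 0.96 TPM. Nrf1 was the highest with the principal length, at 150 TPM, and Pprc1 stood at 109.8 TPM. Ppargc1a, the coactivator known from muscle and brown fat, had 1 count in replicate 3 and 0 elsewhere.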

How the data were processed

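RNA was measured in 4 libraries of 1 group. The values are raw fragment counts per gene, deposited by the authors. Per the file headers, the authors ran featureCounts 1.4.6-p4, pooling the exons of each GENCODE release 13 gene (mm10), with both ends required and strand option 2; the headers show no option for multimapping fragments. The aligner release is not given in the sources used here. The labels call the assay total RNA-seq but link a polyA library protocol, so selection is unclear.

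TPM was computed here over all genes from the counts and exon lengths. Symbols came from GENCODE release 21 for 50376 of 50600 genes; principal transcripts came from the same release. Fragments of PCR copies are not independent molecules, so depth covers counting error only. Detected genes had 1 TPM or more in all 4 libraries, and zero counts took a floor of 3.

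Excess spread was tested in edgeR 4.0.16 (R 4.3.3): TMM factors, filterByExpr, trended dispersion, intercept-only fit, deviance against a chi-square on 3 degrees of freedom, Benjamini-Hochberg over all genes. The p-values measure only the spread between these libraries. Pairs used an exact sign-flip test on log2(TPM + 1). DESeq2 1.42.0 size factors were an alternative. Python 3.11.15, pandas 2.3.3 and numpy 2.4.6 did the rest. The members, lists, tests and rule for named genes were chosen with earlier results of these data known. Named were the pairs, the complex I core, complexes II and III, the 3 highest and lowest of each complex, undetected or called members, the extremes of spread, all complex V subunits, and list extremes. Ndufa6, Ndufa9, Ndufc1, Ndufb5, Ndufb7, Ndufb8, Ndufa7, Ecsit, Slc25a3, Nrf1, the head-to-head examples and pseudogenes were added once values were seen. The alternatives with principal transcript length, coding genes only and counts of the lowest library were added after seeing the data. The values of 1 member, which stays in the counts, medians and tests, are not reported here.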

Additional observations from a re-analysis of the deposited data

Results flagged for a closer look

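Of 78 detected members examined, 4 had 1 library apart from the other 3, with a gap over the range above Dixon's critical value for 4 samples; chance flags about 1 in 20 groups of 4. Ndufa9 had its gap at the low end in replicate 4 (0.929), at 207 TPM against 220 to 221 TPM in the others. Ndufc1 (0.863), Ndufa6 (0.851) and Ndufa10 (0.844) had theirs at the low end in replicate 3.

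Outside the protein-coding members, 8 of 10 processed pseudogenes whose names match the rule had more than 3 counts in a library. The highest was Uqcrh-ps2, with 28, 25, 20 and 54 counts, and it was the 1 pseudogene of the 10 detected in every library, at 6.13 ± 0.81 TPM. Its parent Uqcrh shares 7.83% of its 50-base words with other genes.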

How the results depend on the processing

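No paired analysis was possible because the labels give 1 group. Detection held at 79 members when any 1 library was left out. The count of members with excess spread was 5 in edgeR, against 0.687% of genes. It was 1 with a common dispersion (Cox7a1, not among the 5), against 4.51% of genes. After removal of the principal transcript length trend it was 1 (Atp5g1, not among the 5), against 0.833%. With nuclear protein-coding genes alone it was 8, against 0.881%. The count ran from 0 to 5 when each library was left out. Without replicate 4 it was 3, against 0.335% of genes. The pair Atp5g1 and Atp5g2 turned to 1.04 on log2 CPM not divided by length, 1 reversal among 105 alternatives over the pairs. The members' share, 2.32% on average, was 1.15% of counts and 2.55% with principal transcript lengths. Principal lengths gave medians of 163 TPM for complex I, 274 for complex II, 397 for complex IV and 358 for complex V, and all 20 members of complex IV, undetected ones included, gave 150.1 TPM. The cause was not tested for the dispersion and gene-set settings. Replicate 3 was the lowest for 68 members by TPM and for 69 to 72 when another library was left out or with TMM or DESeq2 scaling, which moved the median shift there from -0.21 to -0.26. With 4 libraries of 1 condition, every statement is limited to these libraries.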
